A study of Mus musculus with 8 samples.

Results

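Antimicrobial peptide genes of skin and the gene of lipocalin 2 were followed in mouse dorsal skin with and without house dust mite (HDM) allergen and with and without oral butyrate. The 10 members were named by symbol and were found among 22740 listed protein-coding genes: the beta-defensins Defb1, Defb3, Defb4, Defb6 and Defb14, the cathelicidin Camp, lipocalin 2 (Lcn2), the protease inhibitor Slpi, the peptidoglycan recognition protein Pglyrp1 and the lectin Reg3g. RNA sequencing libraries of 8 female BALB/c mice, 2 in each of 4 groups, were compared. All mice ate a low-fibre diet. CTL mice drank plain water, and butyrate mice drank 400 mM sodium butyrate from 2 weeks before the first allergen exposure. Mice were 6 to 8 weeks old. Lesional skin was shaved and patched with 15 µg of HDM on 4 occasions spread over 2 weeks, and baseline skin was not exposed. In the labels a first number differs between baseline and lesional mice and a second between CTL and butyrate mice, and their meaning is not given. HDM exposure cannot be told apart from what the first number stands for, nor butyrate from the second. What is written as HDM below includes the shaving and the patch.

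Antimicrobial peptides are small secreted proteins with which epithelia hold back microbes. Beta-defensins and cathelicidin damage microbial membranes, lipocalin 2 binds the siderophores with which bacteria take up iron, Slpi inhibits neutrophil serine proteases, Pglyrp1 binds bacterial peptidoglycan and Reg3g binds Gram-positive bacteria. Keratinocytes raise many of them after injury or under IL-17, IL-22 and IL-1 family cytokines, type 2 cytokines are known to lower several of them, and neutrophils also carry Camp, Lcn2, Slpi and Pglyrp1. In RNA of whole skin, fewer cells of a type and less RNA per cell cannot be told apart.

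The 5 defensin members lie on chromosome 8 on the plus strand (GRCm38, GENCODE vM21). Defb14, Defb4, Defb6 and Defb3 follow each other with gaps of 3493, 23932 and 65150 bases, and Defb1 starts 2481307 bases after Defb3. Defb3 occupies chr8:19293360-19295291 and Defb6 chr8:19225478-19228209, each with 2 exons. Lcn2 lies at chr2:32384633-32388252 and Slpi at chr2:164354070-164389095, both on the minus strand, and Reg3g at chr6:78466269-78468872, also on the minus strand.

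Upstream sequences are shown for Defb3, whose lesional butyrate mice lay below the lesional CTL mice, for its neighbour Defb6, whose lesional groups overlapped, and for Reg3g, which like Defb3 was not counted in baseline skin. They are the 250 bases before the RefSeq gene start (GRCm38.p6), at chr8:19293111-19293360 for Defb3, chr8:19225228-19225477 for Defb6 and, read from the minus strand, chr6:78468875-78469124 for Reg3g. Capitals mark matches, on either strand, to TTNNGNAA, a short form of the C/EBP motif, or to GGGA and CC with any 4 bases between them, a short form of the NF-kB motif.
Defb3: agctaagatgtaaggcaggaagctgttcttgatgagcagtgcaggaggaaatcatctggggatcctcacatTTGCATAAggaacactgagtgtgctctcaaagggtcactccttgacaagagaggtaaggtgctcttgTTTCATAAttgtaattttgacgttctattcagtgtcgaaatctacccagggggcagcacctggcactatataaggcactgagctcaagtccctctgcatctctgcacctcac
Defb6: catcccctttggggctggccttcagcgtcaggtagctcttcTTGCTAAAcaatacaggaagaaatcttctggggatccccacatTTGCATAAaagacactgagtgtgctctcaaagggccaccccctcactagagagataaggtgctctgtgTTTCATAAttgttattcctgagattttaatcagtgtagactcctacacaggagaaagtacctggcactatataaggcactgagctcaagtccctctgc
Reg3g: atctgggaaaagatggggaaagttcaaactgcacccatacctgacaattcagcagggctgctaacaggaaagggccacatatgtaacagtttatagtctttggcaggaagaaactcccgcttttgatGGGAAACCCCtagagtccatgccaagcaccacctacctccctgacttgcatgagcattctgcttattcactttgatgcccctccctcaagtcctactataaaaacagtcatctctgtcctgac
In a global alignment, 192 of 235 aligned bases (81.7%) were identical between the Defb3 and Defb6 sequences, against 51.9% between Defb3 and Reg3g and 46.4% between Defb6 and Reg3g. Defb3 and Defb6 both hold TTGCATAA, 179 and 166 bases upstream of the start, and TTTCATAA, 112 and 98 bases upstream, and Defb6 also holds TTGCTAAA. Reg3g holds GGGAAACCCC 123 bases upstream. Of the 7 members with a RefSeq promoter window (250 bases before to 50 after the start), 4 held the C/EBP letters (Defb3, Defb6, Lcn2 and Slpi) and 3 held the NF-kB letters (Reg3g, Pglyrp1 and Camp). Over all 32851 windows of this length, 40.7% held the C/EBP letters at least once, 13.6% held them at least 2 times and 20.7% held the NF-kB letters. The STAT letters TTCNNNGAA, held by 8.3% of all windows, were in none of the 7. These matches are a description of letters, and Defb1, Defb4 and Defb14 were not matched.

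Library totals were between 18004136 and 21085544 counts, and levels are given as CPM, the count of a gene scaled to the TMM-scaled size of its library. A floor of 3 counts corresponded to between 0.138 and 0.169 CPM. One library stood apart: baseline butyrate replicate 3 correlated with the other 7 at between 0.941 and 0.949, and 3878 of 14319 genes (27.1%) were more than 2-fold apart in the baseline butyrate pair, against 257 to 717 genes in the other pairs. Its 15 listed hair follicle markers summed to 20470 CPM, against 48.0 CPM in the other baseline butyrate mouse and 45.2 to 68.9 CPM in the other groups. Calls that changed without this mouse are given both ways for the members, and for the lists of defence, inducing, type 2 and partner genes called genes are named. Without it more of all genes were called in both HDM comparisons and between the lesional groups. Basal keratinocyte markers summed to between 8081 and 13550 CPM, and muscle markers to between 11040 and 51160 CPM, so that the libraries hold tissue below the epidermis too. The muscle sum was 42050 to 51160 CPM in baseline CTL and 17970 to 25460 in lesional CTL skin. With butyrate it was 11040 to 48960 CPM in baseline and 14210 to 26150 in lesional skin. Its part in the values of the members was not tested.

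Defb6 was the most abundant member per length of transcript in each of the 4 groups. Its CPM per kilobase of the main transcript was 461 in baseline CTL skin (377 to 544 in the 2 mice), 287 in baseline butyrate (221 to 352), 1725 in lesional CTL (1667 to 1783) and 1744 in lesional butyrate (1366 to 2122). It made up 80.6% of the summed level per kilobase of the 10 members in lesional CTL skin and between 85.3% and 90.7% in the other groups.

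The order below Defb6 differed between baseline and lesional skin. In baseline CTL skin, Defb1, the constitutive beta-defensin, followed with 28.5 CPM per kilobase, then Defb14 with 9.94, Lcn2 with 6.34, Pglyrp1 with 1.76 and Slpi with 1.05, and the ranges of these neighbours did not overlap. Lesional CTL skin had Lcn2 second with 190 CPM per kilobase, then Defb3 with 89.4, Defb14 with 61.1, Defb1 with 45.8, Slpi with 18.9, Pglyrp1 with 6.52 and Reg3g with 1.59, again without overlap between neighbours. With butyrate, lesional levels were 66.2 CPM per kilobase for Lcn2, 54.9 for Defb1, 30.4 for Defb14 and 17.7 for Defb3, and each of these neighbours overlapped the next. Some places depend on the length used. Over all annotated exons Lcn2 had 66.3 CPM per kilobase in lesional CTL skin, below Defb3. In lesional butyrate skin it then had 23.1, below Defb1 and Defb14. In baseline CTL skin Slpi (0.777) then lay above Pglyrp1 (0.665), and their ranges overlapped.

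**Figure D1:**
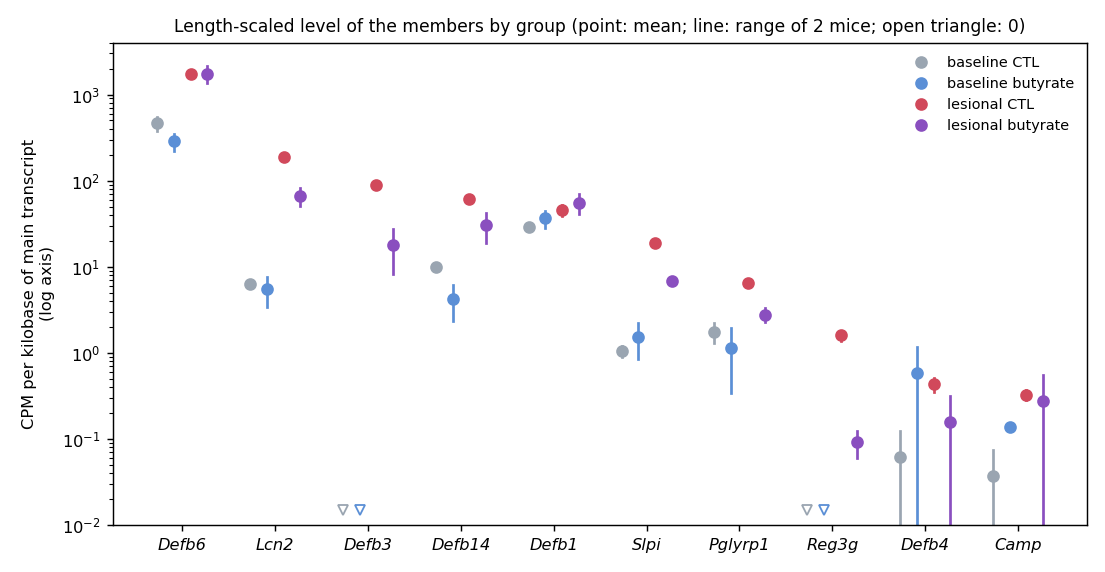
Level of each member in CPM per kilobase of its main transcript (vertical log axis) in the 4 groups, where points are means, lines span the 2 mice and reach the axis where a mouse was at 0, and open triangles are groups with 0 counts. Defb6 lies above the other members in each group, and Defb3 and Reg3g have points in lesional skin only.

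Defb4 and Camp were close to the limit of detection. Defb4, an inducible defensin of mucosal surfaces, had 0 and 1 counts in baseline CTL mice, 0 and 11 in baseline butyrate, 3 and 5 in lesional CTL and 3 and 0 in lesional butyrate. Camp had 1 and 0, 2 and 2, 4 and 6, and 0 and 9 counts in the same order of groups. Neither passed the filter on low counts, so 8 of the 10 members were tested, and no member was at or under 3 counts in all 8 libraries. Over the 2 lesional mice of each group the ratio of CTL to butyrate was 2.80 for Defb4 (95% exact counting interval 0.672 to 16.4) and 1.17 for Camp (0.426 to 3.25). Of the transcript stretches of 50 bases of Defb4, 5.68% also occur in Defb8, so some of its few reads could belong to either gene. Of 37 other beta-defensin genes listed, 29 had 0 counts in each library and 3 (Defb2, Defb25 and Defb30) exceeded 3 counts in any library, the highest count being 8.

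**Figure D2:**
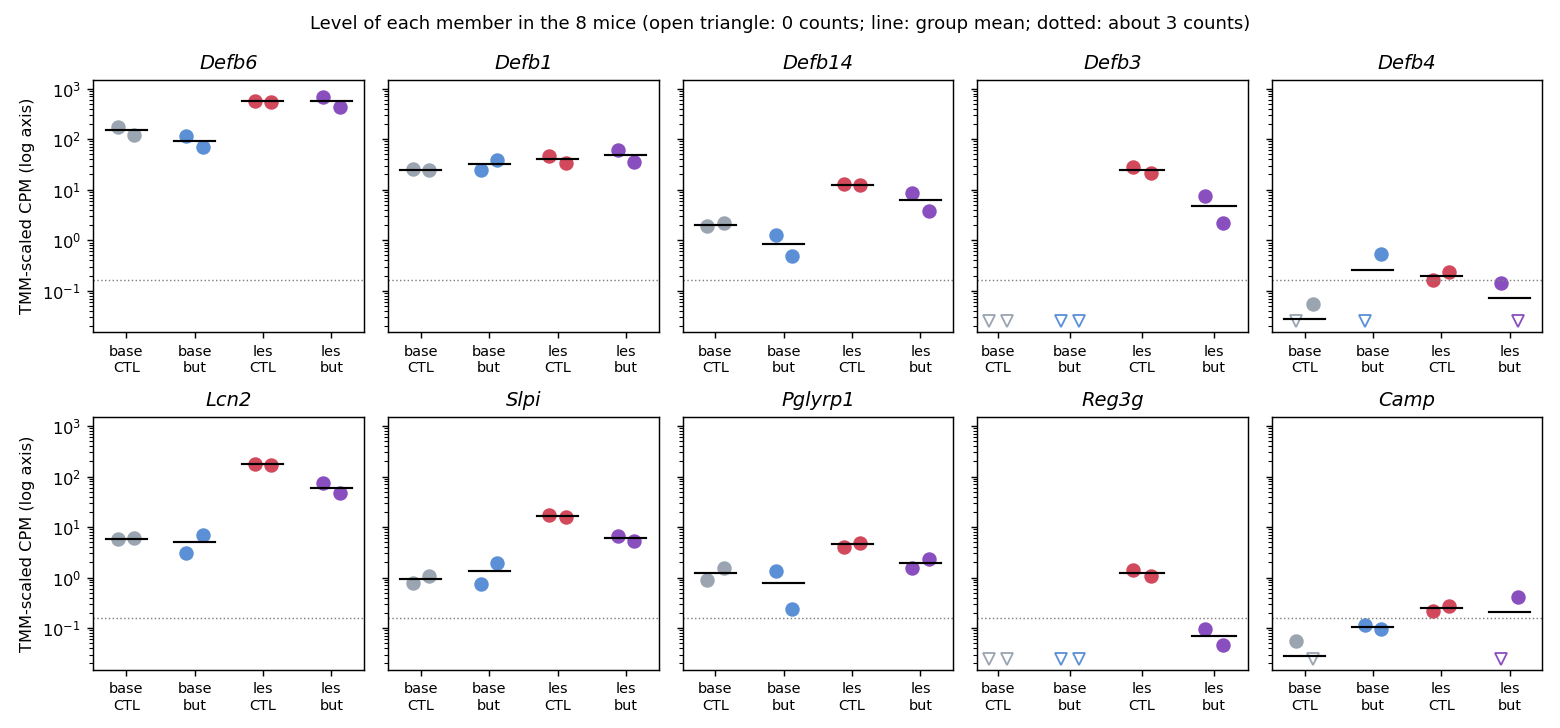
CPM of the 10 members (vertical log axis) in each mouse of baseline (base) and lesional (les) skin with CTL water or butyrate (but), with lines at group means, open triangles at 0 counts and a dotted line near 3 counts. Lcn2, Slpi, Defb3 and Reg3g are highest in both lesional CTL mice, whereas the lesional CTL and butyrate mice overlap for Defb6 and Defb1.

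The first comparison asked how the members differed between HDM-exposed and unexposed skin of CTL mice. Lcn2, Slpi, Defb3, Defb6, Defb14 and Reg3g rose, which is 6 of the 8 tested members, while 2.37% of all 15163 tested genes rose (edgeR's quasi-likelihood test, Benjamini-Hochberg FDR below 0.1 over all tested genes and fold-change above 2, the meaning of called from here on). The increase was 30.0-fold for Lcn2, 18.1-fold for Slpi, 6.15-fold for Defb14 and 3.75-fold for Defb6. Defb3 and Reg3g passed the filter on low counts through lesional skin alone and so had to differ here. Of the other 6 tested members 4 rose, and in all 6 both lesional mice lay above both baseline mice, as in 36.7% of all tested genes.

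Lcn2 had 5.67 and 5.94 CPM at baseline and 180 and 168 CPM after HDM exposure. The log2 fold change was 4.90 (SE 0.38, FDR 0.0141 by edgeR's quasi-likelihood test). Both lesional mice were far above both baseline mice, and the spread within each pair was small beside the distance between them. Slpi had 0.778 and 1.06 CPM at baseline and 17.6 and 15.5 CPM in lesional skin, a log2 fold change of 4.17 (SE 0.46, FDR 0.0294 by the same test).

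Among the defensins, Defb3, the mouse relative of human beta-defensin 2 and an inducible member, had 0 counts in both baseline CTL mice, which allows up to 3 counts in each, and 515 and 470 counts in the lesional CTL mice. Its mean of 24.6 CPM was at least 148-fold higher than this floor (FDR 0.0449 by edgeR's quasi-likelihood test). Defb6, an inducible defensin that was already expressed at baseline, had 176 and 122 CPM at baseline and 576 and 539 CPM in lesional skin. Its log2 fold change was 1.91 (SE 0.33, edgeR FDR 0.0555). Defb14, the mouse orthologue of human beta-defensin 3, had 1.89 and 2.17 CPM at baseline and 12.8 and 12.2 CPM in lesional skin, a log2 fold change of 2.62 (SE 0.51, edgeR FDR 0.0734). The inducible defensins thus differed in whether a baseline level was counted, and in each the lesional pair lay above the baseline pair.

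Reg3g had 0 counts in both baseline CTL mice and 26 and 23 counts in the lesional CTL mice, at least 7.35-fold above the floor of 3 counts per library (edgeR FDR 0.0523). Pglyrp1 had 0.889 and 1.55 CPM at baseline and 4.11 and 4.94 CPM in lesional skin, with a log2 fold change of 1.88 (SE 0.69) and an edgeR FDR of 0.222. Defb1 had 25.2 and 24.5 CPM at baseline and 45.8 and 34.2 CPM in lesional skin, with a log2 fold change of 0.68 (SE 0.33) and an edgeR FDR of 0.311. Of the transcript stretches of 50 bases of Pglyrp1, 2.67% also occur in other genes. Pglyrp1 and Defb1 did not pass the test, although their pairs did not overlap. The calls depended on the mice kept, and so did those over all genes. Any call of Defb3 or Reg3g below is no support, since both passed the filter on low counts through lesional skin alone. No member was called without either baseline CTL mouse (0% of all genes) or without either lesional CTL mouse (0.102% and 0.147%). Defb3, Lcn2 and Slpi were called without either lesional butyrate mouse (0.697% and 0.748% of all genes), and 7 members, Pglyrp1 with the first 6, without either baseline butyrate mouse (12.3% and 12.5%).

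The same comparison in butyrate-treated mice asked whether the members also differed between lesional and baseline skin when butyrate was drunk. Lcn2 and Defb6 rose, against 0.277% of all tested genes. They are 2 of the 6 members left without Defb3 and Reg3g, which passed the filter on low counts through lesional skin alone. Lcn2 had 3.10 and 6.86 CPM at baseline and 74.3 and 46.9 CPM in lesional skin, a log2 fold change of 3.60 (SE 0.38, edgeR FDR 0.0709). Defb6 had 114 and 71.4 CPM at baseline and 685 and 441 CPM in lesional skin, a log2 fold change of 2.61 (SE 0.33, edgeR FDR 0.0878). In both genes the lesional pair lay above the baseline pair.

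Defb3 had 0 counts in both baseline butyrate mice and 157 and 48 counts in the lesional butyrate mice, at least 31.2-fold above the floor (edgeR FDR 0.173). For Slpi the levels were 0.733 and 1.95 CPM at baseline and 6.59 and 5.30 CPM in lesional skin, with a log2 fold change of 2.13 (SE 0.44, edgeR FDR 0.191), and Defb14 had 2.86 (SE 0.55, edgeR FDR 0.173). Reg3g had 0 counts at baseline and 2 and 1 counts in lesional butyrate skin, at or under the floor in both groups, so no fold is given. Lesional mice lay above baseline mice without overlap in Lcn2, Defb6, Defb14, Slpi and Pglyrp1, 5 of the 6 members that passed the filter without lesional skin, against 15.7% of all tested genes.

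The number of calls rested on the baseline butyrate pair. Defb3 passed the filter on low counts through lesional skin alone here too, so its calls below are no support. Without baseline butyrate replicate 3, Defb3, Defb6, Defb14, Lcn2 and Slpi were called (5 members, beside 5.94% of all genes tested). Without replicate 1 Pglyrp1 was called beside these (6 members, 19.1% of all genes). Fits that left out any 1 of the other 6 mice called no member and hardly any gene at all. The log2 fold change over fits that left out 1 mouse was 3.15 to 4.29 for Lcn2 and 2.255 to 2.985 for Defb6. The fit of only the 4 butyrate mice called no member and no other gene, with 681 of 14839 genes at an unadjusted p below 0.05, and DESeq2 called 5 members and 4.6% of all genes. Whether the HDM response itself differed between CTL and butyrate mice is the same contrast as the difference of butyrate effects given below.

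**Figure D3:**
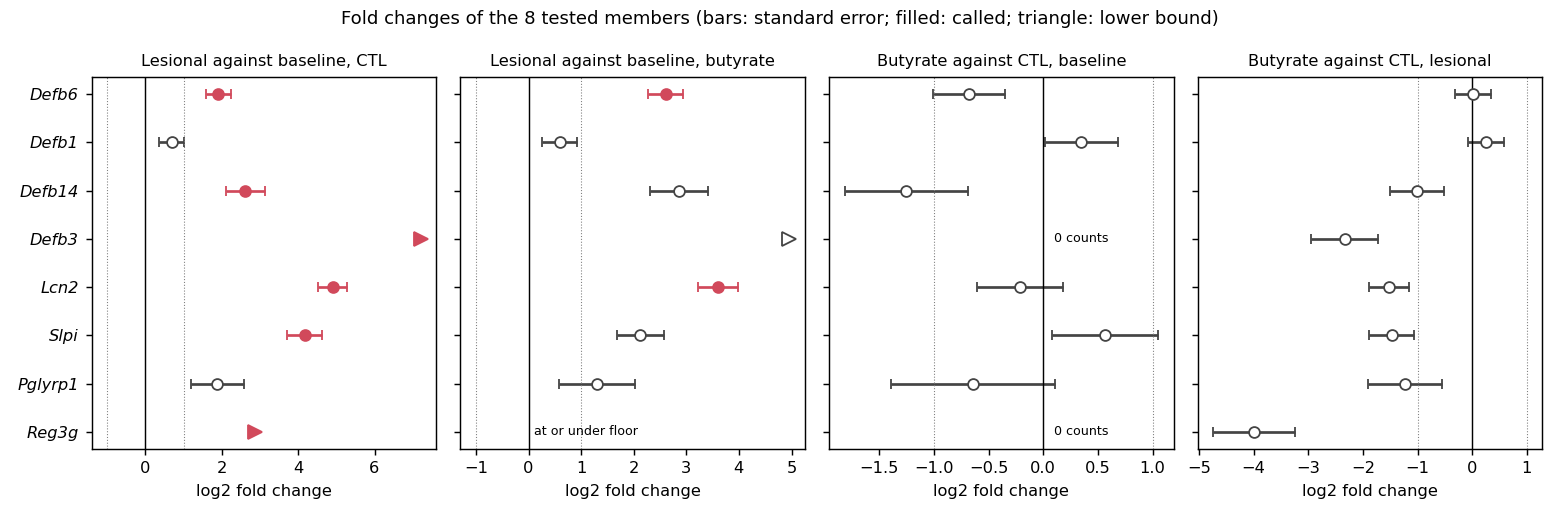
Log2 fold change (horizontal axis, its range differing between panels) of the 8 tested members in 4 comparisons, with bars of 1 standard error, filled symbols for called members, triangles for lower bounds against a group at 0 counts and dotted lines at a fold-change of 2. The panels show 6 filled members in CTL mice, Lcn2 and Defb6 filled in butyrate mice, and none filled in the butyrate comparisons.

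Butyrate was next compared with CTL in baseline skin, without allergen. No member was called, nor was any of the 15163 tested genes (0%), and none of the 6 members with counts in baseline skin had an unadjusted p below 0.05 by edgeR's quasi-likelihood test, against 3.49% of all tested genes. Defb3 and Reg3g were at 0 in all 4 baseline mice and carry no value here. limma-voom called none of the members and neither did DESeq2, which called 58 genes in all. The butyrate mice were below the CTL mice without overlap for Defb6, at 114 and 71.4 against 176 and 122 CPM, and for Defb14, at 1.24 and 0.476 against 1.89 and 2.17 CPM. Such non-overlap towards lower values was found in 15.9% of all tested genes. The log2 fold changes were -0.68 (SE 0.33) for Defb6 and -1.25 (SE 0.56) for Defb14, each with an edgeR FDR of 0.714.

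Baseline butyrate replicate 3, the library that stood apart, held the highest baseline values of Lcn2 (6.86 CPM), Defb1 (38.9 CPM), Slpi (1.95 CPM) and Defb4 (11 counts) and the lowest of Defb6 (71.4 CPM), Defb14 (0.476 CPM) and Pglyrp1 (0.238 CPM). Where Defb4 passed the filter on low counts, it did so only through the 11 counts of this mouse, so it is left out here. With this mouse alone standing for baseline butyrate, the log2 fold changes were -1.06 for Defb6, -2.08 for Defb14, 1.08 for Slpi and -2.33 for Pglyrp1. Without it none was called, and the log2 fold changes were -0.90 for Lcn2 (-0.21 with it), -0.39 for Defb6 (SE 0.32), -0.71 for Defb14 (SE 0.60), -0.32 for Slpi (SE 0.40) and 0.15 for Pglyrp1 (SE 0.47). The hair follicle markers were higher in baseline butyrate in 14 of 14 tested, by this mouse, and their part in the values was not tested.

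The study's main comparison was of butyrate with CTL in lesional skin. Lcn2, Slpi, Defb3, Defb14, Pglyrp1 and Reg3g were lower in both butyrate mice than in both CTL mice. Reg3g passed the filter on low counts through lesional CTL skin alone, so that its lower value is no support and it is left out of the counts that follow. Of the 7 other tested members 5 were lower without overlap, against 22.5% of all tested genes. No member passed the test, as no gene did (0% of 15163, smallest FDR 0.289), while 3 of the 7 (Lcn2, Slpi and Defb3) had an unadjusted p below 0.05, against 4.84% of all tested genes. The paper, with voom and limma, did report differentially expressed genes here at the same FDR and fold thresholds, so the absence of calls belongs to the fit used here. The median log2 fold change of the 7 members was -1.23, beside -0.01 over all tested genes.

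In lesional skin Lcn2 measured 180 and 168 CPM with CTL and 74.3 and 46.9 CPM with butyrate. The mean was 2.87-fold lower with butyrate, a log2 fold change of -1.52 (SE 0.36, 95% interval -2.53 to -0.52, edgeR FDR 0.737). Both butyrate mice stayed above the baseline mice of either treatment, which had at most 6.86 CPM. Slpi had 17.6 and 15.5 CPM with CTL and 6.59 and 5.30 CPM with butyrate, a log2 fold change of -1.48 (SE 0.41, edgeR FDR 0.838). Like Lcn2 it lay between the lesional CTL and the baseline mice.

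Defb3 had 27.5 and 21.7 CPM with CTL and 7.49 and 2.23 CPM with butyrate, where the mice were 3.36-fold apart. The mean was 5.06-fold lower with butyrate, a log2 fold change of -2.34 (SE 0.62, edgeR FDR 0.914). Reg3g had 26 and 23 counts with CTL and 2 and 1 counts with butyrate. The ratio of CTL to butyrate counts, scaled to library size, was 17.2 (95% exact counting interval 5.54 to 86.1, counting error only, edgeR FDR 0.737). For both genes the butyrate pair lay wholly below the CTL pair.

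Defb14 had 12.8 and 12.2 CPM with CTL and 8.54 and 3.86 CPM with butyrate, a log2 fold change of -1.01 (SE 0.49, edgeR FDR 1). Pglyrp1 had 4.11 and 4.94 CPM with CTL and 1.58 and 2.28 CPM with butyrate, a log2 fold change of -1.23 (SE 0.67, edgeR FDR 1). For both, the 95% interval of the log2 fold change included 0, at -2.37 to 0.35 for Defb14 and -3.09 to 0.63 for Pglyrp1.

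Defb6 and Defb1 overlapped between the lesional groups. Defb6 had 576 and 539 CPM with CTL and 685 and 441 CPM with butyrate, a log2 fold change of 0.02 (SE 0.33) with a 95% interval from -0.90 to 0.93. Defb1 had 45.8 and 34.2 CPM with CTL and 60.3 and 35.4 CPM with butyrate, a log2 fold change of 0.26 (SE 0.33) with a 95% interval from -0.66 to 1.18. The direction of both turned below 0 without lesional butyrate replicate 3, at -0.34 for Defb6 and -0.17 for Defb1, so no direction is given for them.

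The calls of this comparison depended on the baseline butyrate pair, which is not among the compared mice but shares the fit with them. Without baseline butyrate replicate 3, Lcn2 (FDR 0.0616), Slpi (FDR 0.0527) and Reg3g (FDR 0.0789) were called lower by edgeR's quasi-likelihood test, beside 1.22% of all genes tested in that fit. The same 3 members were called without replicate 1 (1.22% of all genes) and without both (1.25%). Reg3g passed the filter on low counts through lesional CTL skin alone here too, so its calls are no support, which leaves Lcn2 and Slpi. With only the 4 lesional mice fitted, no member was called, against 0.168% of all genes tested in that fit. The edgeR FDR values there were 0.151 for Lcn2, 0.138 for Slpi and 0.141 for Reg3g. DESeq2 on all mice called Lcn2 (FDR 0.0319), Slpi (FDR 0.0798) and Defb3 (FDR 0.0727) and 0.818% of all genes. limma-voom called no member and 0.0066% of all genes, with FDR values of 0.335, 0.423 and 0.338 for the same 3. The log2 fold change of Lcn2 stayed between -1.89 and -1.23 over all these fits and those that left out 1 mouse.

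Whether the effect of butyrate differed between lesional and baseline skin was tested as a contrast of its own. No member was called (0 of 6 with a baseline level, and 0% of all tested genes), and Lcn2 and Slpi had an unadjusted p below 0.05, against 4.64% of all tested genes. The difference of log2 fold changes was -1.31 for Lcn2 (SE 0.54, edgeR FDR 0.84) and -2.04 for Slpi (SE 0.64, edgeR FDR 0.84). Without baseline butyrate replicate 1 the differences were -1.76 for Lcn2 and -2.56 for Slpi, and without replicate 3 they were -0.62 and -1.16. Defb3 and Reg3g have no such value, since both baseline groups were at 0. limma-voom called no member and no other gene here, and DESeq2 called no member and 0.244% of all genes.

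Other defence genes of skin were counted beside the members, from lists chosen with earlier results of these data known. Of 22 tested, 10 rose with HDM in CTL mice, led by S100a8 (log2 fold change 8.72, SE 0.67), S100a9 (8.43, SE 0.50), the subunits of the zinc-binding protein calprotectin, and the acute phase gene Saa1 (6.99, SE 0.62), and none fell. Saa1 was under the floor of 3 counts in both baseline CTL mice (0.0556 and 0.111 CPM), so the size of its fold is not firm. Saa1, Saa2, Sprr2a1 and Wfdc12 are among the 10 and did not pass the filter on low counts without lesional skin. Their rise with HDM, in CTL or butyrate mice, is therefore no support. In butyrate mice S100a9, Saa1 and Saa2 rose. Without baseline butyrate replicate 3, Chi3l1, Pglyrp3, Pglyrp4, S100a8, Saa3 and Wfdc12 rose besides and Adm and Lyz1 fell, and more of all genes were called too. With butyrate in lesional skin 16 of 22 had a log2 fold change below 0, where 50.9% of all tested genes did, and the median was -0.66, but none was called. Adm and Saa3 were called lower without baseline butyrate replicate 3, where more of all genes were called too. In the fit of all mice the largest differences between the lesional groups were those of Ptx3, a soluble pattern receptor (-2.65, SE 0.92), and Saa3 (-2.55, SE 0.62).

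Upstream signals were taken from a list of cytokines, receptors and transcription factors known to induce these peptides. Of 31 tested, 7 rose with HDM in CTL mice, led by Il1b (5.23, SE 0.53), Il6 (4.93, SE 0.64) and Il1f6, the symbol here for IL-36 alpha (3.36, SE 0.62), and none was called in butyrate mice, where edgeR gave Il1f6 an FDR of 0.111. There, Bcl3, Hif1a, Il1b, Il1f6, Il1f8, Il1f9 and Tnf were called higher without baseline butyrate replicate 3. More of the list was then called in CTL mice too, and more of all genes were called in both comparisons. In lesional skin Il1b had 132 and 136 CPM with CTL and 19.9 and 25.5 CPM with butyrate. Il6 had 11.3 and 16.1 CPM and 2.63 and 1.91 CPM in the same groups. Neither was called lower by butyrate in the fit of all mice (edgeR FDR 0.737 for both). Both were without baseline butyrate replicate 3, where more of all genes were called too. Il17a and Il22, chosen after their values were seen, were at 0 counts in the 4 baseline mice. In lesional skin both were at or below 0.961 CPM. Il17f of the same list was also at 0 in baseline skin. It had 3.90 and 0.831 CPM in lesional CTL and 2.05 and 0.558 CPM in lesional butyrate mice. Il17c was at or below 0.430 CPM in every mouse.

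Among 10 type 2 cytokine genes and receptors, 5 rose with HDM in CTL mice: Il13 (5.40, SE 1.37), Il1rl1 (2.98, SE 0.35), Il13ra2 (2.67, SE 0.34), Il33 (2.25, SE 0.48) and Il4ra (1.94, SE 0.31). Il13 was under the floor of 3 counts in both baseline CTL mice (0.111 and 0 CPM), so the size of its fold is not firm. Il13 did not pass the filter on low counts without lesional skin, so its rise is no support. In butyrate mice Il13ra2 rose, and without baseline butyrate replicate 3 Il1rl1 and Il33 did too, as did more of all genes. With butyrate in lesional skin 8 of 10 were below 0 and none was called, the largest differences being those of Il4 (-2.34, SE 0.85) and Il1rl1, the IL-33 receptor (-1.47, SE 0.35). Il4, 1 of these 8, had 1.23 and 0.508 CPM in lesional CTL and 0.286 and 0.0465 CPM in lesional butyrate mice. It passed the filter on low counts through lesional CTL skin alone, so its lower value is no support. Il1rl1, Il33 and Il4ra were called lower without baseline butyrate replicate 3, where more of all genes were called too. Il1rl1 and Il4ra were called lower in the fit of only the 4 lesional mice, beside 0.168% of all genes.

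Partners, receptors and targets of the members included 21 tested genes, of which Trem1 (8.36, SE 1.19), Klk14 (4.12, SE 0.79), Klk6 (3.91, SE 0.78), Mmp9 (3.75, SE 0.58) and Cma1 (1.48, SE 0.30) rose with HDM in CTL mice. Trem1 was under the floor of 3 counts in both baseline CTL mice (0 and 0.111 CPM), so the size of its fold is not firm. In the fit of all mice Trem1 and Klk14 did not pass the filter on low counts without lesional skin, so their rise is no support. Mmp9 is the gelatinase that lipocalin 2 binds, Trem1 is a myeloid receptor that Pglyrp1 can activate, and kallikreins such as Klk6 and Klk14 are serine proteases of the outer epidermis. None was called in butyrate mice or between the lesional groups, where the largest differences were those of Trem1 (-3.52, SE 0.54) and Mmp9 (-2.45, SE 0.57). The median of the list between the lesional groups was -0.03. Without baseline butyrate replicate 3, Ccr6, Klk14, Klk6, Klk7 and Trem1 were called higher in butyrate mice, and Mmp9 and Trem1 lower between the lesional groups. In CTL mice more of the list was then called higher, and Klk5 lower. More of all genes were called in each of these comparisons too.

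Markers of cells that carry the members moved in the same comparisons. Neutrophil markers rose with HDM in CTL mice in 11 of 15 tested, and their summed level over 20 genes was 58.1 to 61.5 CPM in baseline CTL, 33.5 to 65.0 in baseline butyrate, 1947 to 2990 in lesional CTL and 432 to 863 in lesional butyrate skin. Retnlg and Mmp8 are among the 11 and did not pass the filter on low counts without lesional skin, so their rise is no support. In butyrate mice Cxcr2 and S100a9 rose with HDM. Between the lesional groups 14 of 15 markers were below 0 with a median of -2.08, and none was called. S100a8 and S100a9, which keratinocytes also express, are among them, and without this pair the sum over 18 genes was 53.7 to 55.5 CPM in baseline CTL, 21.7 to 58.6 in baseline butyrate, 525 to 533 in lesional CTL and 153 to 161 in lesional butyrate skin. Ly6g and Ngp were at 0 counts in both lesional butyrate mice and at most 0.231 and 0.462 CPM in lesional CTL. The mature granulocyte receptor Cxcr2 had 56.9 and 64.5 CPM in lesional CTL and 35.8 and 26.4 CPM in lesional butyrate mice.

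Injury keratinocyte markers rose in 5 of 6 with HDM in CTL mice (Krt6a, Krt6b, Krt16, Sprr1b and Stfa1), and 6 of 6 were below 0 with butyrate in lesional skin with a median of -1.07. Their sums were 1042 to 1188 CPM in baseline CTL, 1064 to 3360 in baseline butyrate, 6002 to 9020 in lesional CTL and 3761 to 5227 in lesional butyrate skin. Stfa1 did not pass the filter on low counts without lesional skin, so its rise is no support. In butyrate mice Krt16 and Sprr1b rose with HDM. Suprabasal markers were above 0 in 9 of 9 with butyrate in lesional skin with a median of 1.25. Their sums were 17600 to 18840 CPM in baseline CTL, 4234 to 17950 in baseline butyrate, 4844 to 6373 in lesional CTL and 12810 to 16580 in lesional butyrate skin. Dsg1a of this list was called lower with HDM in CTL mice (-1.24, SE 0.25). No gene of these lists was called between the lesional groups. Without baseline butyrate replicate 3, some neutrophil markers and an injury marker were called lower and some suprabasal markers higher, and more of all genes were called too. The part of neutrophils and of the keratinocyte states in the values of Lcn2, Slpi, Pglyrp1, Reg3g and the defensins was not tested.

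**Figure D4:**
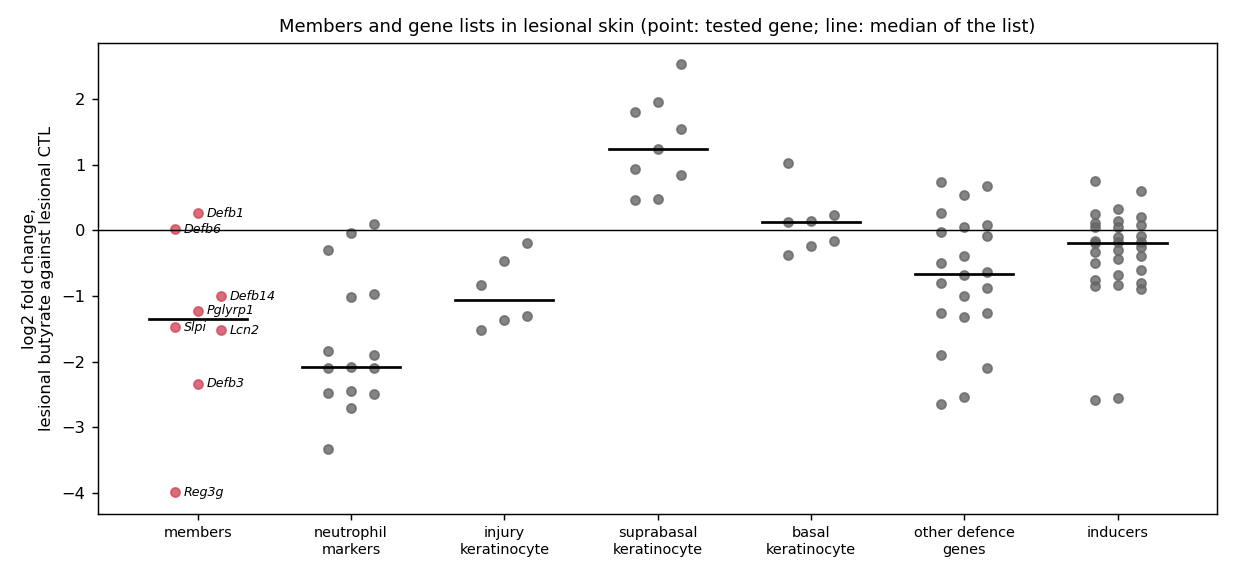
Log2 fold change of lesional butyrate against lesional CTL skin (vertical axis) for the 8 tested members and the tested genes of 6 lists, with lines at list medians. The line of the members is at -1.35 with Reg3g, which passed the filter through lesional CTL skin alone, and the median without it is -1.23, and Defb6 and Defb1 lie near 0.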

How the data were processed

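RNA of whole dorsal skin of 8 mice was analysed. The authors aligned the reads with STAR 2.5.2 to GRCm38 through RNASik and deposited featureCounts counts of protein-coding genes, not normalized. Counting used strand, and reads shared between near-identical genes could be lost or split. Groups were taken from the labels, where SCFA was read as butyrate and vehicle as CTL. The design text of the series counts more samples than the 8 used here. Replicates are mice by the labels, and p-values measure the spread between these mice.

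CPM values and fits were computed from the deposited counts with edgeR 4.0.16 in R 4.3.3 on all 8 mice: TMM scaling (factors 0.944 to 1.04), filterByExpr (minimum count 10), robust glmQLFit, 1 mean per group, 4 residual degrees of freedom and a prior count of 0.125. A gene was called at a Benjamini-Hochberg FDR below 0.1 over 15163 tested genes and a fold above 2. The standard error is that of the fitted coefficient, and 95% intervals of log2 fold changes are built from it. With 2 mice against 2, an exact permutation test cannot go below p = 0.333. Folds against a group at 0 use a floor of 3 counts per library, and counting intervals are exact (95%).

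The members were given by name. For each tested member the 3 genes with the highest Pearson correlation of log2 CPM (prior count 2) were named. From the lists of defence, inducing, type 2 and partner genes the text names the called genes, or the 3 with the largest rise where more than 5 were called. Otherwise it names the 2 with the largest difference between the lesional groups. From the marker lists only some called genes are named. The members and lists were chosen with earlier results of these data known. Older symbols were matched through RefSeq synonyms, and Cebpd, Flg, Krt85, Trac and Trdc were not analysed here.

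The alternatives tried included RLE size factors, no low-count filter, a prior count of 2, the FDR alone, fits of only the compared mice, fits that left out 1 mouse, limma-voom (limma 3.58.1), DESeq2 1.42.0 and, chosen after seeing the data, a fit without both baseline butyrate mice. The scripts were tested on simulated data. Upstream sequences were aligned with Biopython 1.88 (match 1, mismatch -1, gap open -5, gap extension -1).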

Additional observations from a re-analysis of the deposited data

How the results depend on the processing

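No paired analysis was possible because the groups compared hold different mice. Where a fit leaves 1 mouse in a group, that mouse is assumed to vary like the other groups. Over the fits that left out 1 mouse, the members called ranged from 0 to 3 for butyrate in lesional skin, 0 to 5 for butyrate in baseline skin, 0 to 7 for HDM in CTL mice, 0 to 6 for HDM in butyrate mice and 0 to 3 for the difference of butyrate effects, while the share of all genes called reached 1.22%, 24.1%, 12.5%, 19.1% and 20.9%. DESeq2 called 3 members lower for butyrate in lesional skin and 5 higher for HDM in butyrate mice. The fit of only the compared mice called 0 for HDM in butyrate mice, and the fit without both baseline butyrate mice called 3 for butyrate in lesional skin. RLE size factors, no low-count filter, the FDR alone and limma-voom gave the same numbers of members called in all 5 comparisons. In these numbers, Reg3g for butyrate in lesional skin and Defb3 and Reg3g for HDM are no support. Each passed the filter on low counts only through the group where it was high. The same holds for Defb4 for butyrate in baseline skin and for the difference of butyrate effects, through 1 mouse. The cause of the differences between fits was not tested. Signs turned for small log2 fold changes. limma-voom gave -0.018 for Defb6 with butyrate in lesional skin, and leaving out 1 mouse gave -0.34 to 0.30 for Defb6 and -0.17 to 0.59 for Defb1 there. With butyrate in baseline skin, leaving out 1 mouse gave -0.024 to 0.64 for Defb1, -0.90 to 0.24 for Lcn2, -0.32 to 1.08 for Slpi and -2.33 to 0.15 for Pglyrp1. For the difference of butyrate effects it gave -0.52 to 0.29 for Defb1, -0.44 to 1.07 for Defb14 and -1.38 to 1.11 for Pglyrp1. Lcn2, Slpi, Defb3, Defb14, Pglyrp1 and Reg3g stayed lower with butyrate in lesional skin in every fit run. Depth limits Defb4, Camp and, outside lesional CTL skin, Reg3g.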

Other observations

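Genes whose log2 CPM followed a member most closely over the 8 mice are given as a description, since the 8 mice share 4 groups and a gene that differs with HDM will correlate with any other that does. Defb3 ran closest to Sprr2j-ps (Pearson r 0.998), Lce3b (0.998) and S100a9 (0.996), Sprr2j-ps and Lce3b belonging to the small proline-rich and late cornified envelope families. Lcn2 ran closest to Olah (0.993), Sprr2f (0.993) and Lce3c (0.992), of which the last 2 belong to the same pair of families. For Defb6 the closest was Il1f6 (0.996), then Sox7 (0.994) and Degs1 (0.991). Slpi ran closest to Ppard (0.993), Saa3 (0.990) and H13 (0.990), and Reg3g to Traf1 (0.992), Klf7 (0.985) and Psg18 (0.982). Pglyrp1 was followed by Sema6d (0.993), Fxyd5 (0.993) and the leukocyte gene Cd53 (0.992), Defb14 by Pgs1 (0.992), Tnfrsf1a (0.990) and Wbp1l (0.990), and Defb1 by Pygo2 (0.987), Ezr (0.986) and Polr1d (0.983). Among the members themselves Lcn2 correlated at 0.989 with Defb3 and 0.985 with Slpi, and Defb1 correlated least with the others, from 0.149 with Pglyrp1 to 0.723 with Slpi.

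Defb6 and Il1f6 overlapped between the lesional groups. Il1f6 had 39.3 and 35.1 CPM in lesional CTL and 63.3 and 25.4 CPM in lesional butyrate mice, with a log2 fold change of 0.25 (SE 0.59), against 0.02 (SE 0.33) for Defb6.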
